A study of Drosophila melanogaster with 14 samples.

Results

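Muscle actin and muscle myosin genes were set against the cytoplasmic actin genes in RNA-seq libraries of *Drosophila* testes, taken from larvae of the third instar, with and without RNAi knockdown of both lamins (Lam-KD). The 10 genes were chosen by name and not by a rule on their values, though with earlier results of these data known. They were the cytoplasmic actins *Act5C* and *Act42A*, the muscle actins *Act57B*, *Act79B*, *Act87E* and *Act88F*, the actin-related gene *Arp53D*, and the muscle myosin genes *Mhc*, *Mlc1* and *Mlc2*, out of 13776 genes measured. Lam-KD males carried UAS-LamDm0-RNAi together with bam-Gal4-VP16, as well as UAS-LamC-RNAi/+, and control males carried the bam-Gal4-VP16 driver alone, with 3 biological replicates of pooled testes in each group. Both groups therefore share the driver, which is active in germline cells from late spermatogonia (SpG) on and most active in early-to-mid spermatocytes (SpCs). The RNAi transgenes were present in all Lam-KD libraries and in no control library, so that an effect of the knockdown and one of the strain cannot be told apart. Whole testes were used, which hold somatic cells that the driver does not reach and some fat body. In such bulk RNA, fewer cells of a type and less RNA per cell cannot be told apart either.

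Actin is the protein of the thin filaments and of the cell cortex, and flies have 6 genes for conventional actins, which code for nearly identical proteins. *Act5C* and *Act42A* supply the cytoskeleton of most cells. *Act57B* and *Act87E* are used mainly in the larval body wall muscles, *Act79B* in tubular muscles of the adult such as those of the leg, and *Act88F* in the indirect flight muscles. *Arp53D* codes for a divergent actin-related protein of the male germline. *Mhc* is the single gene for the heavy chain of muscle myosin, the thick filament motor, while *Mlc1* and *Mlc2* code for its essential and regulatory light chains. In the gene table of Release 6, *Act5C* (FBgn0000042) lies on the X chromosome, *Act42A* (FBgn0000043), *Act57B* (FBgn0000044) and *Arp53D* (FBgn0011743) on arm 2R, *Mhc* (FBgn0264695) on 2L, *Act79B* (FBgn0000045) on 3L, and *Act87E* (FBgn0000046), *Act88F* (FBgn0000047), *Mlc1* (FBgn0002772) and *Mlc2* (FBgn0002773) on 3R. The larval testis has no muscle sheath yet, since the sheath muscles of the adult organ grow over it in the pupa.

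The libraries held between 5651960 and 7437111 expected reads on genes, fewer than the reads sequenced per library that the labels state, and the sources used here do not explain the gap. Their TPM (the level of a transcript relative to all transcripts of the library, corrected for gene length) allow levels of different genes to be compared. *Lam*, which codes for Lam Dm0, was at 16.7, 15.1 and 14.9 TPM in Lam-KD testes, against 87.0, 96.8 and 69.7 TPM in control testes. *LamC* was at 8.35, 9.36 and 7.08 TPM in Lam-KD testes, against 28.6, 32.1 and 19.2 TPM in control testes. For both targets, no Lam-KD value reached the lowest control value. The tissue label was checked on 8 genes of the SpC stage, of which all were measured, with summed levels of 683–702 TPM in Lam-KD and 467–618 TPM in control testes. Control replicate 3 stood apart from the other controls. The chi-square per degree of freedom over genes was 12.9 and 12.2 between it and the others, against 5.32 between control replicates 1 and 2 and 2.34–4.14 among the Lam-KD libraries. The muscle actin share and the fitted changes of *Mhc*, *Mlc2*, *Act87E*, *Act79B* and *Arp53D* are given with and without it. Changes of genes on the other lists are given with it only.

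Cytoplasmic actins and *Arp53D* were among the strongly expressed genes of the testes, and so was one muscle actin, *Act87E*. *Act42A* had the highest level of the 10 genes in 6 of 6 libraries. Its level was 565, 587 and 569 TPM in Lam-KD testes, against 564, 554 and 475 TPM in control testes. *Act5C* was at 391, 412 and 358 TPM in Lam-KD testes, against 364, 306 and 279 TPM in control testes. By mean TPM over all genes measured, *Act42A* ranked 281 in Lam-KD and 315 in control testes, and *Act5C* ranked 474 in Lam-KD and 634 in control testes.

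*Arp53D*, the germline paralogue, reached the level of *Act5C*, with 307, 323 and 337 TPM in Lam-KD testes, against 336, 349 and 360 TPM in control testes. *Act5C* was above *Arp53D* in 4 libraries, namely the 3 Lam-KD libraries and control replicate 1, and below it in control replicates 2 and 3. The ratio of *Act5C* to *Arp53D* was 1.27, 1.27 and 1.06 in Lam-KD testes, against 1.08, 0.876 and 0.776 in control testes. These ranges overlap, so that the order of both genes is not separated from the spread between libraries.

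*Act87E* came next after these 3 genes in 6 of 6 libraries, with 116, 113 and 120 TPM in Lam-KD testes, against 125, 141 and 151 TPM in control testes. It ranked 2043 in Lam-KD and 1748 in control testes. The other 3 muscle actins together amounted to 5.61, 4.81 and 4.46 TPM in Lam-KD testes, against 4.93, 6.55 and 6.31 TPM in control testes. *Act57B*, a muscle actin of the same larval muscles as *Act87E*, was only at 2.45, 2.27 and 2.71 TPM in Lam-KD testes, against 2.00, 1.88 and 1.55 TPM in control testes. The level of *Act87E* was 47.5, 49.9 and 44.3 times that of *Act57B* in Lam-KD testes, against 62.5, 74.9 and 97.6 times in control testes. Thus *Act87E* and *Act57B* were found at very different levels, and the ratios of the Lam-KD libraries lay below those of all controls. These ratios rest on few reads of *Act57B*, namely 28, 24 and 29 expected reads in Lam-KD and 21.5, 16 and 15 in control testes.

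*Act79B* was at 2.77, 2.11 and 1.54 TPM in Lam-KD testes, against 2.30, 3.88 and 4.30 TPM in control testes, with Lam-KD replicate 1 above control replicate 1. *Act88F*, the flight muscle actin, was close to the limit of detection. It had 4, 4 and 2 expected reads in Lam-KD testes, against 6, 6 and 4 in control testes. Summed over libraries these are 10 reads in Lam-KD (exact Poisson 95% interval 4.80–18.4) and 16 in control testes (9.15–26.0), and the intervals, which cover counting error only, overlap. Its TPM of 0.391, 0.424 and 0.210 in Lam-KD testes, against 0.627, 0.789 and 0.463 in control testes, did not overlap. *Act88F* did not pass the filter described below and was not tested.

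Muscle myosin was found at low levels throughout. *Mhc* was at 0.874, 1.10 and 0.821 TPM in Lam-KD testes, against 1.39, 1.94 and 1.05 TPM in control testes. These values rest on 51, 61 and 45 expected reads in Lam-KD and 77, 85 and 52 in control testes. Lam-KD replicate 2 was slightly above control replicate 3, so that the groups overlap in TPM. *Mlc2* was at 1.13, 0.968 and 0.953 TPM in Lam-KD testes, against 1.40, 1.28 and 2.11 TPM in control testes, and all Lam-KD values lay below all control values. These values rest on only 19, 15 and 15 expected reads in Lam-KD and 22, 16 and 30 in control testes. The read numbers, which are not corrected for library size, overlap between groups. *Mlc1* had 1, 2 and 0 expected reads in Lam-KD testes, against 2, 4 and 1 in control testes. Its sums of 3 reads in Lam-KD (0.619–8.77) and 7 in control testes (2.81–14.4) do not allow a comparison.

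**Figure D1:**
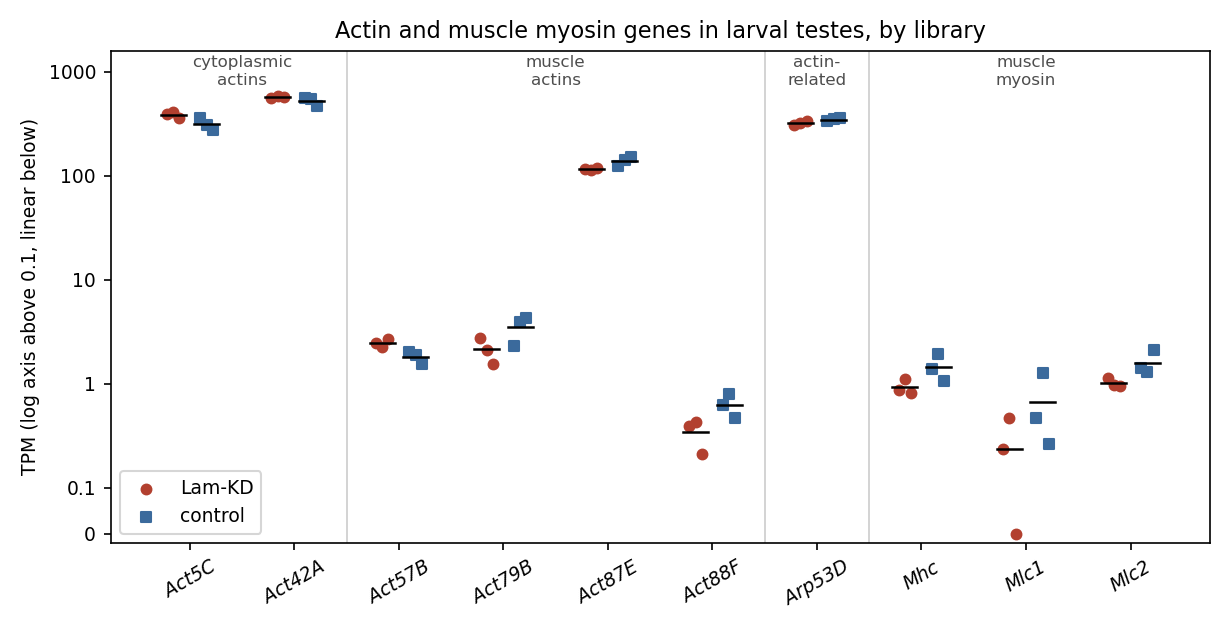
Level of each gene in TPM (axis logarithmic above 0.1 and linear below) in the 3 Lam-KD (circles) and 3 control libraries (squares), with black lines for the mean of each group. *Act42A*, *Act5C*, *Arp53D* and *Act87E* lie above 100 TPM in all 6 libraries, while the other 3 muscle actins and the 3 muscle myosin genes lie below 5 TPM.

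*Act87E* was thus far above muscle myosin in level. The ratio of *Act87E* to *Mhc* in TPM was 133, 103 and 147 in Lam-KD testes, against 90.2, 72.3 and 143 in control testes, and these ranges overlap. As the 6 actin genes code for nearly identical proteins, some reads may fit more than one of them, and the deposited estimates may share such reads out. The paper describes a unique mapping of reads to the genome before they were counted. Some expected reads are still not whole numbers, such as 4269.5 for *Act5C* and 1200.5 for *Act87E* in Lam-KD replicate 3. How many reads this concerns was not tested. According to the Release 6 gene table, *Act87E* also overlaps the long noncoding RNA gene *lncRNA:CR45591*, which was not analysed here, and the strand setting of the counting is not given in the sources used here.

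The make-up of actin mRNA was compared as the share of each gene in the summed TPM of the 6 actin genes. This sum was 1078.0, 1117.6 and 1051.7 TPM in Lam-KD testes, against 1057.6, 1006.5 and 911 TPM in control testes. Muscle actins made up 11.3%, 10.6% and 11.9% of it in Lam-KD testes, against 12.3%, 14.6% and 17.3% in control testes. The mean share was 11.2% ± 0.645 in Lam-KD and 14.7% ± 2.49 in control testes (SD, n = 3 each), and each Lam-KD library was below each control. As a score over genes chosen by name, the share is given without a test. Control replicate 3 had the highest share of muscle actins, and without it the mean of the controls was 13.5%.

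*Act87E* alone accounted for 10.8%, 10.1% and 11.4% in Lam-KD testes, against 11.8%, 14.0% and 16.6% in control testes. The other 3 muscle actins together contributed 0.520%, 0.430% and 0.424% in Lam-KD testes, against 0.466%, 0.651% and 0.693% in control testes, with overlapping groups. Thus nearly all of the muscle actin share came from *Act87E*. Of the cytoplasmic actins, *Act42A* held 52.4%, 52.6% and 54.2% in Lam-KD testes, against 53.3%, 55.0% and 52.1% in control testes. *Act5C* held 36.3%, 36.9% and 34.0% in Lam-KD testes, against 34.4%, 30.4% and 30.6% in control testes. The groups overlap for both, with control replicate 1 above Lam-KD replicate 3 for *Act5C*. The ratio of *Act87E* to *Act5C* did not overlap, with 0.297, 0.275 and 0.336 in Lam-KD testes, against 0.344, 0.460 and 0.542 in control testes.

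**Figure D2:**
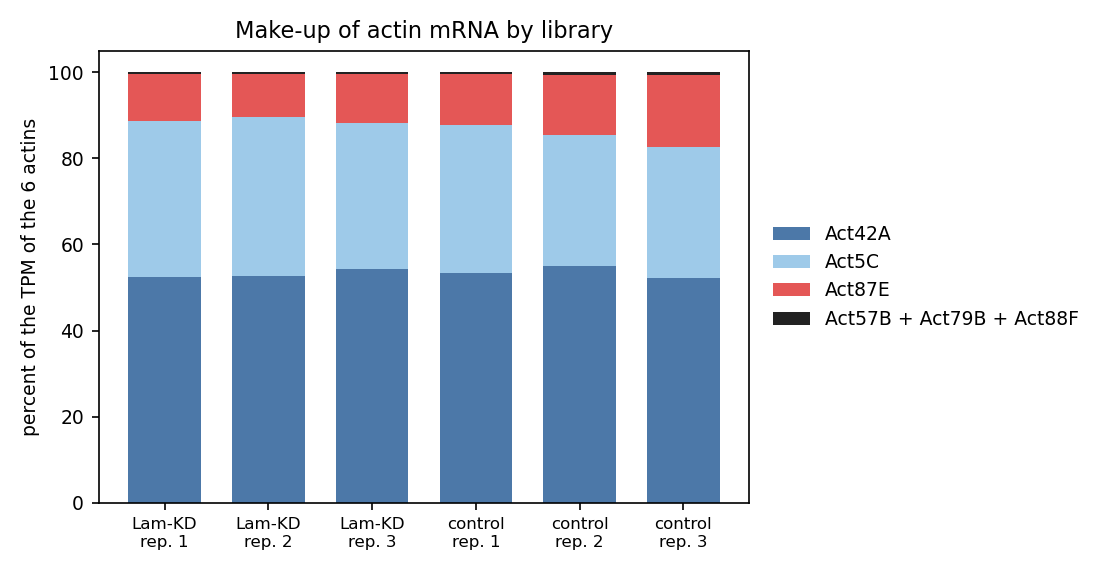
Share of each actin gene in the summed TPM of the 6 actin genes, in percent, as stacked bars for the 3 Lam-KD and the 3 control libraries. *Act42A* makes up more than 50% of each bar, and the *Act87E* segment is between 10.1% and 11.4% in Lam-KD and between 11.8% and 16.6% in control testes.

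Next, Lam-KD testes were compared with control testes for each gene. *Mhc* was the single one of the 10 genes that was called changed, with a lower level upon Lam-KD. Neither the cytoplasmic actins nor the muscle actins nor *Arp53D* were called. The test was the quasi-likelihood test of edgeR on expected reads, over all genes with at least 10 reads in at least 3 libraries, which left 10318 genes and 8 of the 10 members. A gene was called at a Benjamini-Hochberg adjusted *P* under 0.05 together with a ratio of mean TPM over 1.5 in either direction. By this rule 6.41% of all tested genes were called, and 3.22% were called lower. With 1 of 8 members called lower and 0 higher, nothing particular to the group can be read from this number. DESeq2 called *Mhc* as well. At an unadjusted *P* under 0.05, which 34.3% of all tested genes reached, the members *Act79B*, *Act87E*, *Mhc* and *Mlc2* passed. TPM did not overlap between groups for 2 tested members that were lower (*Act87E* and *Mlc2*; 15.6% of all tested genes) and 2 that were higher (*Act42A* and *Act57B*; 21.5% of all tested genes).

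For *Mhc*, mean TPM was 0.932 ± 0.149 in Lam-KD and 1.46 ± 0.450 in control testes (SD, n = 3 each), a ratio of 0.638. The log2 fold change fitted by edgeR was -0.71 (SE 0.202, 95% interval -1.16 to -0.27, adjusted *P* = 0.0429). In CPM (reads of a gene relative to the library size, scaled by TMM and not corrected for gene length), the values were 6.70, 8.38 and 6.58 in Lam-KD testes, against 11.2, 14.9 and 9.45 in control testes, so that the groups do not overlap on this scale. The call was close to the threshold. It was lost without Lam-KD replicate 1 (adjusted *P* = 0.163), Lam-KD replicate 2 (0.0892), Lam-KD replicate 3 (0.116), control replicate 1 (0.0651) or control replicate 2 (0.0886), and it was kept without control replicate 3 (0.0105). The log2 fold change itself stayed between -0.84 and -0.52 in these fits. With limma on log2(TPM + 1) or log2(TPM + 0.1) in place of edgeR, the call was lost too, with log2 fold changes of -0.34 and -0.57 and adjusted *P* = 0.171 and 0.193. The larger pseudocount gave the smaller log2 fold change, though not the larger adjusted *P*. These fits also differ from edgeR in scale and test, and the reason for the lost call was not tested. Over all alternatives the adjusted *P* was 0.0102–0.193.

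The regulatory light chain *Mlc2* had a log2 fold change of -0.74 (SE 0.317, 95% interval -1.44 to -0.04, adjusted *P* = 0.125), which did not pass the test. Without control replicate 3, the library with the highest level of *Mlc2*, the log2 fold change was -0.41 (adjusted *P* = 0.428, range over all alternatives 0.0762–0.428). The 3 muscle myosin genes together summed to 2.24, 2.54 and 1.77 TPM in Lam-KD testes, against 3.25, 4.49 and 3.42 TPM in control testes.

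Among the muscle actins, *Act87E* averaged 117 ± 3.48 TPM in Lam-KD and 139 ± 13.1 TPM in control testes (SD, n = 3 each). Its log2 fold change was -0.35 (SE 0.116, 95% interval -0.60 to -0.09), with an adjusted *P* of 0.0688 by edgeR and a ratio of mean TPM of 0.839, and so it met neither threshold. Without control replicate 3 its log2 fold change was -0.20 (adjusted *P* = 0.0539). *Act79B* had a log2 fold change of -0.84 (SE 0.317, 95% interval -1.54 to -0.15, adjusted *P* = 0.0923), which came to -0.57 without control replicate 3 (adjusted *P* = 0.257). *Act57B* had a log2 fold change of 0.38 (SE 0.252, 95% interval -0.18 to 0.93, adjusted *P* = 0.302). The fitted values of the 3 tested muscle actins thus had no common sign, and none passed the test. Over all alternatives the adjusted *P* was 0.0502–0.257 for *Act79B* and 0.00831–0.237 for *Act87E*.

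The cytoplasmic actins, with between 2897.4 and 5949.0 expected reads behind each value, gave narrower intervals than *Mhc* and *Mlc2*. *Act5C* averaged 387 ± 27.5 TPM in Lam-KD and 316 ± 43.6 TPM in control testes (SD, n = 3 each), with a log2 fold change of 0.21 (SE 0.102, 95% interval -0.01 to 0.44, adjusted *P* = 0.163). *Act42A* averaged 574 ± 11.7 TPM in Lam-KD and 531 ± 48.6 TPM in control testes, with a log2 fold change of 0.03 (SE 0.0895, 95% interval -0.17 to 0.23, adjusted *P* = 0.835). Although its TPM did not overlap between groups, its CPM did, with 781, 784 and 817 in Lam-KD testes, against 806, 760 and 768 in control testes. These scales differ for all genes, since the median log2 fold change over tested genes was 0.01 in the fit and 0.10 for the ratio of mean TPM. *Arp53D* averaged 322 ± 14.7 TPM in Lam-KD and 348 ± 11.9 TPM in control testes, with a log2 fold change of -0.20 (SE 0.101, 95% interval -0.42 to 0.02, adjusted *P* = 0.183), which came to -0.10 without control replicate 3 (adjusted *P* = 0.29, range over all alternatives 0.0773–0.452). The intervals of the 3 genes leave room for changes of up to 1.35-fold for *Act5C*, 1.17-fold for *Act42A* and down to 0.746-fold for *Arp53D*. The median log2 fold change of the 8 tested members was -0.27, and it was negative for 5 of them, beside a median of 0.01 over all tested genes.

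**Figure D3:**
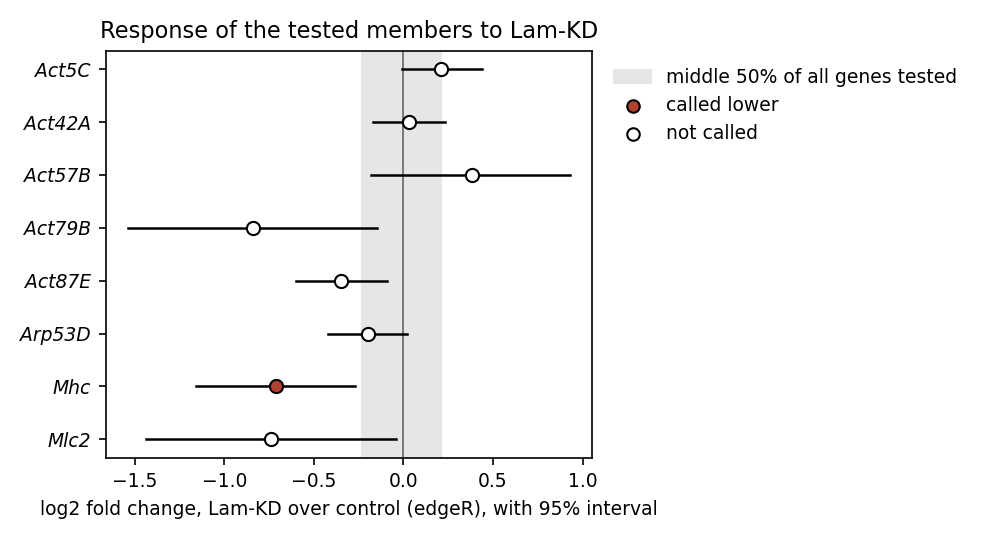
Fitted log2 fold change (Lam-KD over control, edgeR) with its 95% interval for the 8 members tested, where the filled circle marks the gene called lower and the grey band the middle 50% of all tested genes (-0.23 to 0.21). The point of *Mhc* is at -0.71, and the intervals of *Act5C*, *Act42A*, *Act57B* and *Arp53D* include 0.

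To see whether other muscle genes accompany *Mhc* and *Act87E*, partners of actin and myosin in the sarcomere were examined. Of 22 such genes listed, 21 were matched by name, and 10 of these stayed under 1 TPM and 17 at or under 5 TPM in all 6 libraries. *Tm2* (tropomyosin), *TpnC47D* and *TpnC41C* (troponin C), *Mlp60A* (a muscle LIM protein) and *fln* (flightin) had 0 TPM in at least one library. The list summed to 94.5–100 TPM in Lam-KD and 80.3–96.2 TPM in control testes. By the mean over all libraries, the most abundant were *tmod* (tropomodulin, the cap of the slow-growing actin filament end) and *Tm1* (tropomyosin), which also work outside muscle. *tmod* was at 35.0, 37.6 and 33.4 TPM in Lam-KD testes, against 27.0, 30.8 and 18.2 TPM in control testes (log2 fold change 0.38, adjusted *P* = 0.0616). *Tm1* averaged 22.1 TPM in Lam-KD and 17.6 TPM in control testes (log2 fold change 0.24, adjusted *P* = 0.126). Neither passed the test. *Msp300*, a giant protein that links nuclei to the cytoskeleton, was above *Tm1* in the mean of the control testes (19.2 against 17.6 TPM). By library, *Msp300* was above *Tm1* in control replicate 3 alone (24.9 against 13.7 TPM) and below it in control replicates 1 and 2. *Msp300* was at 14.2, 15.3 and 13.6 TPM in Lam-KD testes, against 14.7, 17.9 and 24.9 TPM in control testes (log2 fold change -0.42, adjusted *P* = 0.101).

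Of the 8 sarcomere partners tested by edgeR, 0 were called, 5 had an unadjusted *P* under 0.05, and DESeq2 called 0. Their median log2 fold change was 0.05, with 4 positive values. The giant elastic proteins of the sarcomere were on the lower side, with an adjusted *P* under 0.05 but a fold change under the threshold. *sls*, the fly titin, was at 7.93, 7.56 and 7.10 TPM in Lam-KD testes, against 8.56, 9.74 and 9.47 TPM in control testes (log2 fold change -0.35, adjusted *P* = 0.0358). *bt*, which codes for projectin, was at 0.479, 0.530 and 0.535 TPM in Lam-KD testes, against 0.665, 0.681 and 0.668 TPM in control testes (log2 fold change -0.47, adjusted *P* = 0.0376). These genes and *Msp300* were named after their values were seen, and for *sls* and *bt* all Lam-KD libraries were below all controls.

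Muscle regulators and genes of calcium handling gave 0 calls among 9 tested by edgeR and 0 by DESeq2, with 3 at an unadjusted *P* under 0.05 and a median log2 fold change of 0.11. The most abundant were *Argk1* (arginine kinase, which buffers ATP), at 327, 337 and 304 TPM in Lam-KD testes, against 290, 267 and 182 TPM in control testes, and *SERCA*, the calcium pump of the endoplasmic reticulum. *SERCA* was at 75.4, 79.1 and 73.5 TPM in Lam-KD testes, against 61.9, 71.5 and 50.2 TPM in control testes. Neither passed the test (adjusted *P* = 0.098 and 0.0818). *RyR*, the calcium release channel, was likewise named after its values were seen. It had a log2 fold change of -0.54 (adjusted *P* = 0.0412) and mean levels of 0.701 TPM in Lam-KD and 0.960 TPM in control testes, under the fold threshold. The muscle transcription factor gene *Mef2* was measured in all 6 libraries, with 5.25, 5.02 and 4.88 TPM in Lam-KD testes, against 4.34, 4.60 and 4.10 TPM in control testes (log2 fold change 0.14, adjusted *P* = 0.377). The transcription factor genes *nau*, *tin* and *bap* of the same list had 0 TPM in at least one library.

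Genes that work with cytoplasmic actin were examined next. Of 14 nonmuscle and unconventional myosins listed, 12 were matched, and 7 of these stayed at or under 5 TPM in all 6 libraries. The heavy chain gene of nonmuscle myosin, *zip*, and *Myo81F* were not matched and are not compared here. Nonmuscle and unconventional myosins gave 0 calls among 9 tested by edgeR and 0 by DESeq2, with 3 at an unadjusted *P* under 0.05 and a median log2 fold change of 0.23. The light chain genes of nonmuscle myosin, in contrast, were far above their muscle counterparts. *Mlc-c*, the essential light chain, was at 168, 170 and 158 TPM in Lam-KD testes, against 151, 159 and 141 TPM in control testes. *sqh*, the regulatory light chain, was at 101, 96.2 and 94.0 TPM in Lam-KD testes, against 83.5, 90.2 and 67.1 TPM in control testes. Their log2 fold changes of 0.05 and 0.23 did not pass the test (adjusted *P* = 0.631 and 0.0997).

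All 8 actin-related genes other than *Arp53D* were tested, and 0 were called by edgeR and 0 by DESeq2, with 2 at an unadjusted *P* under 0.05 and a median log2 fold change of 0.10. *Arp1*, of the dynactin complex, averaged 70.4 TPM in Lam-KD and 59.1 TPM in control testes. *Arp3*, of the Arp2/3 complex that starts branched filaments, averaged 47.6 TPM in Lam-KD and 38.2 TPM in control testes. *Arp53D* thus exceeded both of these genes, the most abundant of the list, in level. Regulators of the actin filament gave 0 calls among 23 tested by edgeR and 0 by DESeq2, with 7 at an unadjusted *P* under 0.05, 17 positive log2 fold changes and a median of 0.16. *tsr* (cofilin, which severs filaments) was at 956, 940 and 910 TPM in Lam-KD testes, against 832, 787 and 575 TPM in control testes. *chic* (profilin, which binds actin monomers) was at 666, 661 and 642 TPM in Lam-KD testes, against 589, 573 and 466 TPM in control testes. Neither passed the test, with log2 fold changes of 0.28 and 0.18 (adjusted *P* = 0.0893 and 0.154), although the Lam-KD libraries were above all controls for both.

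**Figure D4:**
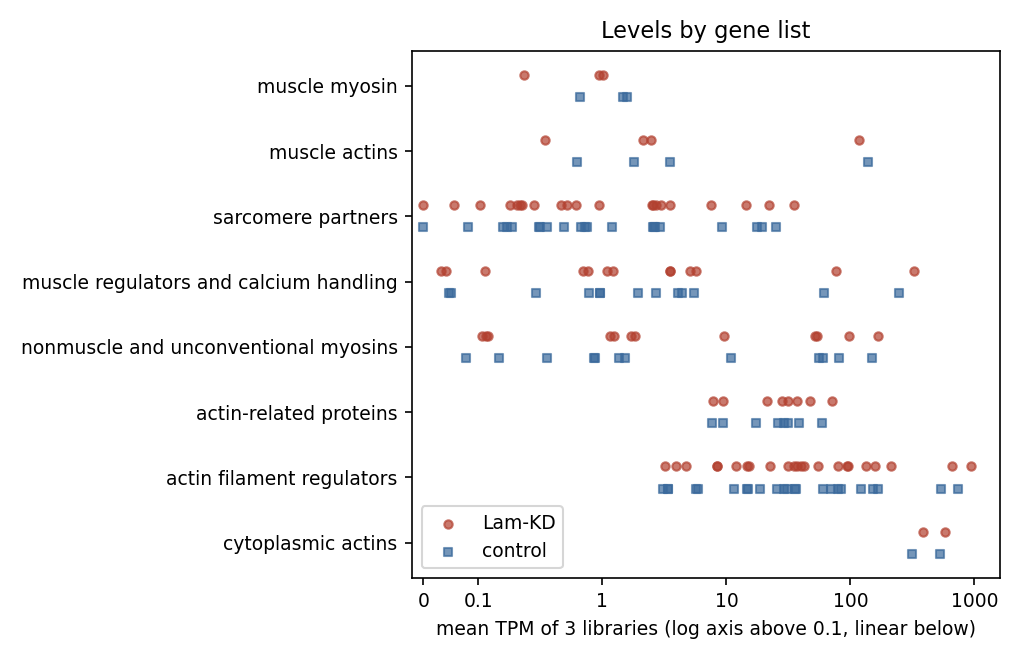
Mean TPM of 3 libraries (axis logarithmic above 0.1 and linear below) for each gene of 8 lists, with Lam-KD as circles above control as squares. All muscle myosin genes are below 2 TPM in both groups, one muscle actin (*Act87E*) is at 117 TPM in Lam-KD and 139 TPM in control testes, and both cytoplasmic actins are above 300 TPM.

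Markers of other cells that may be attached to the testes were measured beside *Mhc*. Fat body markers, all 6 of which were measured and tested, summed to 4731.7–7587.0 TPM in Lam-KD and 5916.7–8851.8 TPM in control testes. The list was mixed in sign, with 2 positive and 4 negative log2 fold changes, of which *Lsp1alpha* had 0.54 (adjusted *P* = 0.414) and *Fbp1* had 0.47 (adjusted *P* = 0.226). One gene, the larval serum protein gene *Lsp1gamma*, was called lower, with 1139.8, 1353.8 and 919.0 TPM in Lam-KD testes, against 2030.9, 1593.2 and 1651.7 TPM in control testes (log2 fold change -0.73, adjusted *P* = 0.0155). Hemocyte markers (5 measured, 4 tested, *NimC1* at 0 in some libraries) summed to 13.4–16.6 TPM in Lam-KD and 13.9–26.4 TPM in control testes. *eater*, a phagocytosis receptor of hemocytes, was called lower, with 2.58, 2.42 and 2.13 TPM in Lam-KD testes, against 6.20, 4.51 and 4.45 TPM in control testes (log2 fold change -1.18, adjusted *P* = 0.00157). The other hemocyte markers were not called. Of the 4 tested, 1 had a positive log2 fold change, and the median was -0.48. *Pxn* had -0.34 (adjusted *P* = 0.409), *He* had -0.63 (adjusted *P* = 0.168) and *Hml* had 0.15 (adjusted *P* = 0.688). *NimC1*, which was not tested, averaged 0.684 TPM in Lam-KD and 0.270 TPM in control testes with overlapping groups. The part of fat body and hemocytes in the lower level of *Mhc* was not tested.

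Neuronal markers (4 of 4 tested) summed to 14.6–17.9 TPM in Lam-KD and 11.8–14.7 TPM in control testes and went in both directions. The synaptic vesicle gene *nSyb* and the active zone gene *brp* were called lower, with log2 fold changes of -1.10 (adjusted *P* = 0.034) and -0.80 (adjusted *P* = 0.00685). *Syt1*, the calcium sensor of synaptic vesicles, was called higher, with 10.1, 11.4 and 9.47 TPM in Lam-KD testes, against 5.09, 3.95 and 4.31 TPM in control testes (log2 fold change 1.32, adjusted *P* = 5.58e-05). Of 5 markers of the somatic cyst and hub cells, which summed to 46.2–50.1 TPM in Lam-KD and 36.1–44.6 TPM in control testes, *tj*, a transcription factor gene of these cells, was called higher by edgeR (log2 fold change 0.66, adjusted *P* = 0.0453) but not by DESeq2. Of the tracheal markers, *verm* and *serp* were not called, and *trh*, a transcription factor gene of the trachea, did not pass the filter and was not tested. It had 9, 10 and 18 expected reads in Lam-KD testes, against 1, 0 and 1 in control testes, so that all Lam-KD libraries were above all controls at low levels. The pigment cell marker *Sox100B* and the germline markers *nanos* and *bam* were not called. Of the tested SpC markers, 0 of 8 were called by edgeR and 0 by DESeq2, with 4 at an unadjusted *P* under 0.05. The most abundant ones, *sa* and *nht*, averaged 200 and 164 TPM in Lam-KD and 149 and 141 TPM in control testes. With a fold change under the threshold, *sa*, *mia* and *achi* had an adjusted *P* under 0.05 (0.0226, 0.0374 and 0.0269), with positive log2 fold changes of 0.35, 0.38 and 0.33. *mia*, *achi*, *Mef2*, *trh*, *Lsp1alpha*, *Fbp1*, *Hml*, *Pxn*, *He* and *NimC1* were named after their values were seen.

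Finally, genes whose level varied most like that of *Mhc*, *Act5C* or *Arp53D* were listed, by Pearson's correlation of log2 CPM over the 6 libraries, among tested genes with a mean TPM of at least 10. These points share the 2 groups and the position of control replicate 3, and the values are a description. For *Mhc* they were *CG40439* (*r* = 0.999), *pasha* (0.980) and *ab* (0.980), and 54 of 6926 genes were at 0.9 or more. For *Act5C* they were *GstD1* (0.995), a glutathione S-transferase gene, *PCID2* (0.992) and *alt* (0.985), with 164 of 6925 genes at 0.9 or more. For *Arp53D* they were *CG4270*, *CG3894* and *CG5139* (0.998 each), with 1277 of 6925 genes at 0.9 or more, so that many genes shared its pattern. None of these 9 genes was a member or on another gene list used here. The limit on TPM had left out most sarcomere genes beforehand, since 17 of the 21 matched partners stayed at or under 5 TPM. Nothing is therefore read from their absence. Among the members, *Arp53D* and *Act87E* varied together (*r* = 0.96 over 6 libraries, and 0.83 over the 5 libraries without control replicate 3). In a count that was not planned, *Act87E* was at 0.9 or more with 1396 of 6925 genes. The value with *Arp53D* is thus not particular to this pair. *Mlc2* and *Act87E* had 0.93, and 0.70 without control replicate 3. With so many genes at 0.9 or more with *Act87E*, this value is not particular to the pair either. *Mlc2* also had 0.88 with *Arp53D*. The values of *Mhc* were lower, with 0.40 for *Act87E* and 0.34 for *Mlc2* (0.67 without control replicate 3). *Act87E* and *Act5C* varied in opposite directions (-0.80, and -0.87 without control replicate 3).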

How the data were processed

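RNA-seq libraries of 3 Lam-KD and 3 control replicates were grouped by the sample titles in the labels. The remaining libraries of the series, 14 in all, are Lam-DamID libraries and were not used here. By the paper's account, adapters were clipped, short reads were removed and the rest were mapped uniquely to dm3/R5. The authors deposited expected counts, estimated by *Salmon* per gene of the BDGP5.78 annotation on dm3/R5, without normalization. The TPM deposited by the authors came from the same estimates. Here, expected counts were rounded and tested with edgeR 4.0.16 (TMM, R 4.3.3), and intervals came from its *t* distribution. For the standard error, the size of the log2 fold change was divided by the root of *F*. *Lam* and *LamC* were left out of the tests. Alternatives used DESeq2 1.42.0, limma 3.58.1 on log2(TPM + pseudocount), other filters, thresholds and normalizations, a replicate block and leaving out each library. Poisson intervals of low read numbers cover counting error only. In simulated counts, 120 of 197 tested genes (60.9%) with a 1.5-fold change were found, and 4 of 10198 genes were called falsely. For a 2-fold change, 161 of 195 genes (82.6%) were found, and 13 of 10225 genes were called falsely. Both simulations used the adjusted *P* under 0.05 alone, without the fold threshold. Their shares therefore do not hold for the full rule by which genes were called. Counts were drawn independently for each gene, so that shifts of many genes in one library, as in control replicate 3, were not simulated. The numbers of false calls may therefore not hold for the real libraries.

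All members are named, as are called genes of the other lists (at most 4 per list and direction), the 2 most abundant genes of lists without a call, and the 3 genes most like *Mhc*, *Act5C* and *Arp53D*. The members and lists were chosen with earlier results of these data known. Of 117 other genes listed, 111 were matched. Symbols and overlapping genes came from the Release 6 gene table, whose coordinates were used only to find the overlaps.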

Additional observations from a re-analysis of the deposited data

How the results depend on the processing

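None of the 8 tested members changed direction under any alternative run. *Mhc* alone was called with DESeq2, RLE size factors, filterByExpr, no filter on low counts, no fold threshold, the fold change of the fit or the replicate block. Members called were 0 with limma on log2(TPM + 1) or log2(TPM + 0.1), 3 with the unadjusted *P* (*Act79B*, *Mhc* and *Mlc2*), and 0–1 when single libraries were left out, where the log2 fold change of *Mhc* was between -0.84 and -0.52. Over all genes, 661 were called, 1305 without the fold threshold, 326–820 when single libraries were left out, and 517–958 under the others. The mean share of muscle actins was 10.9–11.6% in Lam-KD and 13.5–15.9% in control testes when single libraries were left out, and 10.6% in Lam-KD and 14.1% in control testes by expected reads.

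The labels number the replicates but do not say whether libraries of the same number were prepared together. Deviations from the group means correlated at 0.059, 0.073 and 0.177 for replicates of the same number. Pairs of unlike number lay between -0.156 and 0.107. Their only positive value was that of Lam-KD replicate 2 and control replicate 1, which exceeded its value with control replicate 2. With the number as a replicate block, 827 genes and 1 member were called, and *Act87E* reached an adjusted *P* of 0.00831 while its fold change stayed under the threshold.

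*Act88F* and *Mlc1* had at most 6 expected reads in a library. Their change upon Lam-KD was not detectable at the depth of the deposited counts, which is below that stated for sequencing.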
